A study of Mus musculus with 19 samples.

Results

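Inflammatory cytokine and inflammasome genes were followed in 19 mouse liver RNA libraries. The set has 10 members of the 35498 genes in the files: the cytokine genes Tnf, Il1a, Il1b and Il18, the receptor antagonist gene Il1rn, the inflammasome genes Nlrp3, Pycard and Casp1, and Casp4 and Gsdmd of the cell death step. These members and the gene lists used below were chosen by name, with earlier results of these data known. Counts of called genes among them are therefore not independent of these data. Estimated reads of all transcripts of a gene were summed, and all 10 genes passed the filter on low counts. The libraries come from livers of male mice at 24 weeks, with the genotype written C57Bl/J6 in the labels. The treatment labels are WSD (n = 5), CTRL (n = 5), WSD+beta-Glucan (n = 4) and CTRL+beta-Glucan (n = 5). The series title names dietary oat beta-glucan, a soluble cereal fibre, and fatty liver. WSD is used here as a group name, since no label gives its meaning. Whole liver was sequenced in every group, so fewer cells of a type and less RNA per cell cannot be told apart. Nothing says that each library is a separate mouse, so the spread behind each p-value may be technical.

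Inflammasomes are protein platforms that turn danger or microbial signals into cytokine release. Toll-like, TNF or interleukin-1 receptor signalling through NF-kappaB first raises transcription of Nlrp3 and of the Il1b precursor. A second signal then assembles the sensor NLRP3 with the adaptor ASC (the product of Pycard) and caspase-1, which cleaves the precursors of interleukin-1 beta and interleukin-18 and the pore protein gasdermin D. Caspase-11, the product of mouse Casp4, cleaves gasdermin D after binding cytosolic lipopolysaccharide. Because cleavage and release follow translation, RNA levels show the supply of these components and not whether inflammasomes were active. In liver, Kupffer cells and recruited macrophages are known sources of Tnf and Il1b, while Il18 and Gsdmd are also transcribed in other cells.

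Promoters are shown because these genes are textbook targets of rapid transcription factors and differed in how they moved. RefSeq windows of 250 bases before the start (GRCm38.p6, an earlier build than the GRCm39 of the quantification) were found for 9 of the 10 genes, with 13 starts. Gsdmd had no entry. Below are the 120 bases just before one start of the 3 cytokine genes with a TATA box near the start, of Casp4 and of Il18. Capitals mark the TATA box (TATAAA) or, in Casp4, matches to the NF-kappaB consensus; positions count back from -1, the base before the start.

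Il1a, chr2:129309973-129310092, minus strand: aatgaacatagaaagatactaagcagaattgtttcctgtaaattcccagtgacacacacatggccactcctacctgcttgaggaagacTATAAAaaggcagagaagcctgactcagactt
Il1b, chr2:129371140-129371259, minus strand: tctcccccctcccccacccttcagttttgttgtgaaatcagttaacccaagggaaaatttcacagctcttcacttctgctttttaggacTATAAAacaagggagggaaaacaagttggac
Tnf, chr17:35202008-35202127, minus strand: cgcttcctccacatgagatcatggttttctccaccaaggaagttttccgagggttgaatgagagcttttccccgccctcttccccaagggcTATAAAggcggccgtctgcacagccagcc
Casp4, chr9:5308729-5308848, plus strand: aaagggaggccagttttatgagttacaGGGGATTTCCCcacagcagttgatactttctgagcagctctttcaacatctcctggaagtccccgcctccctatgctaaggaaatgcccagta
Il18, chr9:50554580-50554699, plus strand: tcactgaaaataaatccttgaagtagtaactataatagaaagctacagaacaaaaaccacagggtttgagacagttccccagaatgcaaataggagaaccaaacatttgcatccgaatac

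The TATA box of Il1a started at -32, that of Il1b at -31 and that of Tnf at -29. Among all 32851 promoter windows, 2.12% held TATAAA starting between -35 and -25. Il18 held it only at -175, and the sequence anywhere in the window was present in 12.4% of windows. The NF-kappaB consensus, searched on both strands, lay in Casp4 as an overlapping pair at -93 and -92, and at -186 of 1 Nlrp3 start. It was present in 3.90% of all windows. The macrophage factor motif PU.1 (GAGGAAG) was found in Il1a, Pycard, Nlrp3 and Tnf against 10.6% of windows. The AP-1 motif TGANTCA was found in Il1rn and Il1a against 6.75% of windows, and the C/EBP motif TTGCNNAA in Pycard against 9.56%. All motifs were searched on both strands. The percentages are per window, while the 9 genes had 13 windows, so a gene with several starts had more chances of a match. These are matches of letters in a short window and not measured binding sites.

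Libraries held between 17253823 and 23450232 estimated reads, with a median of 19481377. Levels are given as CPM (reads per 1000000 reads, scaled between libraries by TMM), differences as log2 fold changes with their standard error (SE), and a gene was called when the edgeR p adjusted over all 13594 tested genes was under 0.05. Scaling matters in this series. With total reads alone in place of TMM the median log2 fold change of all tested genes for WSD against CTRL moved from -0.04 to 0.43, and for WSD+beta-Glucan against WSD from 0.01 to -0.14. In the first of these comparisons 3528 genes were called higher and 3680 lower with TMM, against 7874 higher and 617 lower with total reads. The 3 libraries with titles starting 37, 39 and 40 (CTRL+beta-Glucan replicates 1 and 2, WSD+beta-Glucan replicate 1) stand apart: on the second principal component of log2 CPM (6.68% of the variance) they lay at 18.2 to 51.8, and the other 16 libraries at -21.6 to 10.3. The summed level of 8 hepatocyte markers was high in every library but lower with WSD: 103000 to 137000 CPM in CTRL, 118000 to 154000 in CTRL+beta-Glucan, 51700 to 62400 in WSD and 63600 to 94800 in WSD+beta-Glucan.

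Under WSD, 8 of the 10 genes rose and none fell. Of all tested genes 53.0% were called, 26.0% higher and 27.1% lower. Tnf, Casp4, Pycard, Nlrp3, Casp1 and Il1rn rose between 4.57 and 8.89-fold, Il1a rose 2.57-fold and Gsdmd 1.32-fold. Il1b and Il18 did not pass the threshold. The median log2 fold change of the 10 genes was 2.35, against -0.04 over all tested genes. In 6 of the 10 genes every WSD library lay above every CTRL library, as in 20.0% of all tested genes. With the 3 libraries of titles 37, 39 and 40 left out, 8 genes were again called higher.

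**Figure D1:**
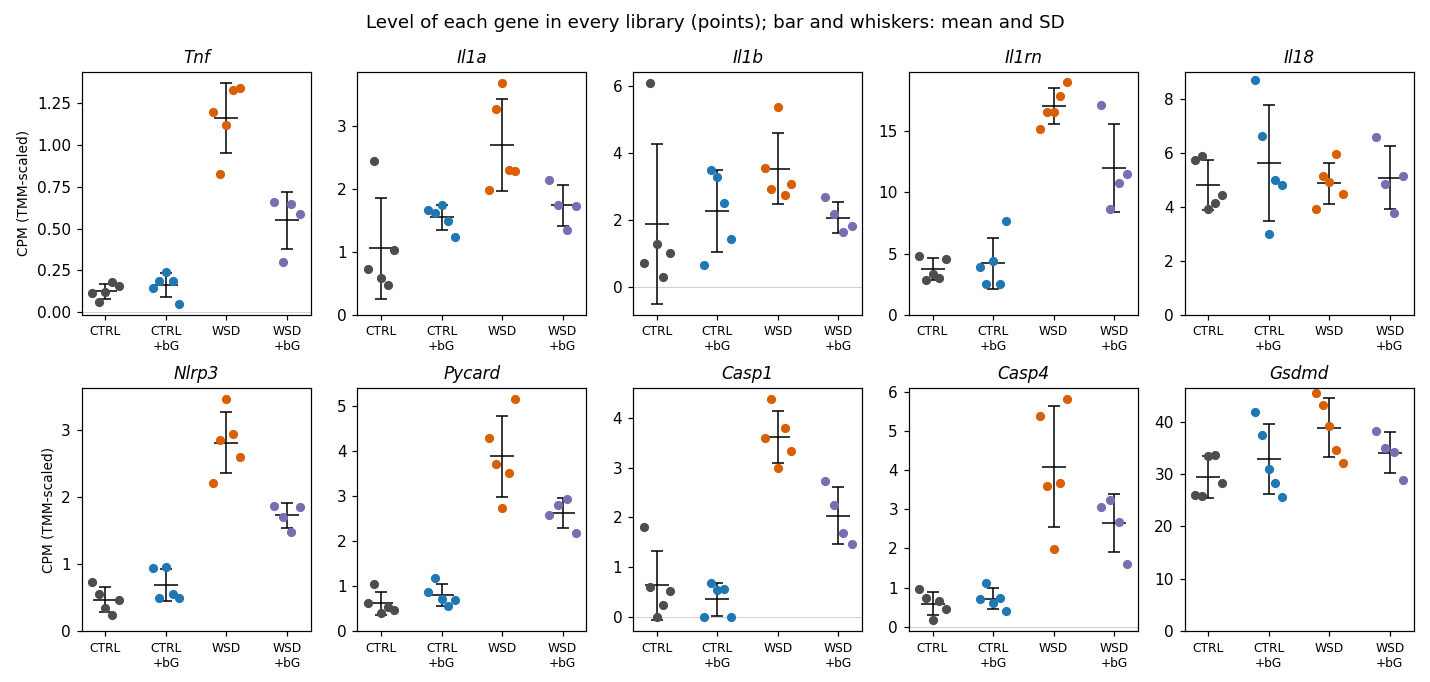
Level of each of the 10 genes as TMM-scaled CPM on a linear axis, 1 point per library, in CTRL, CTRL+beta-Glucan (CTRL+bG), WSD and WSD+beta-Glucan (WSD+bG); bars and whiskers are the mean and SD. Tnf, Il1rn, Nlrp3, Pycard, Casp1 and Casp4 separate WSD from CTRL without overlap, 1 CTRL library reaches 6.09 CPM for Il1b, and the groups overlap for Il18.

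Tnf encodes the cytokine tumour necrosis factor. It was close to the detection limit without WSD. CTRL libraries held 2, 1, 2, 3 and 3 reads, or 0.112, 0.0609, 0.117, 0.177 and 0.155 CPM in the order of replicates 1 to 5. WSD libraries held 26, 20, 26, 29 and 33 reads, or 1.20, 0.826, 1.12, 1.33 and 1.34 CPM. The lowest WSD library was far above the highest CTRL library. The log2 fold change was 3.15 ± 0.35 (SE; edgeR adjusted p = 4.83e-07). The size of this fold rests on 11 reads over the 5 CTRL libraries.

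On all libraries the interleukin-1 agonists moved less, and both estimates depended on 1 control library, which also decided the call of Il1b. Il1a, whose product is active without cleavage and acts as an alarm signal of dying cells, stood at 0.731, 2.44, 0.583, 0.473 and 1.03 CPM in CTRL replicates 1 to 5. In WSD it stood at 1.98, 3.26, 3.68, 2.29 and 2.28 CPM. Only CTRL replicate 2 reached into the WSD range, and the log2 fold change was 1.36 ± 0.32 (SE, edgeR adjusted p = 0.00143). With 1 library left out at a time it ran from 1.182 to 1.918 and stayed called. Il1b, whose precursor needs cleavage, stood at 0.731, 6.09, 1.28, 0.296 and 1.03 CPM in CTRL. In WSD it stood at 3.55, 2.93, 5.36, 2.75 and 3.09 CPM, so the highest of these 10 values belongs to the control library. The log2 fold change was 0.92 ± 0.55 (SE), not called (edgeR adjusted p = 0.168). Without CTRL replicate 2 it was 2.07 (edgeR adjusted p = 0.0004), and on all libraries it was 1.59 with limma-voom (adjusted p = 0.0123) and 1.37 with total-read scaling (edgeR adjusted p = 0.0432).

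CTRL replicate 2 held 100 Il1b reads, against 5 to 22 in the other CTRL libraries. It was also the highest CTRL library in Pycard (1.04 CPM) and Il18 (5.91 CPM), close to the next library in the latter. Its Tnf (1 read), Il1rn (2.86 CPM) and Gsdmd (25.7 CPM) were the lowest of the group. Neutrophils are another known source of Il1b. The summed CPM of 9 neutrophil markers was 9.38 in this library, against 3.31 to 6.69 in the other CTRL libraries. CTRL+beta-Glucan replicate 1 had the highest neutrophil sum of all libraries, 15.9, and an Il1b level of 0.649 CPM. Camp was at 0 in all CTRL libraries, and Ly6g was at 0 in 4 of the 5. The part of neutrophils in the Il1b level was not tested. Il1b overlaps the antisense gene Il1bos and Il1a the antisense gene Gm14023, and the strand setting of the quantification is not given in the sources used here.

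Il1rn, the gene of the antagonist that blocks the interleukin-1 receptor, was the most abundant of the strongly raised genes. CTRL libraries held 4.78, 2.86, 3.32, 3.02 and 4.58 CPM, and WSD libraries 15.2, 16.6, 16.6, 17.9 and 19 CPM. The groups were far apart and WSD varied little, with a mean of 17.1 ± 1.44 (SD, n = 5) CPM. The log2 fold change was 2.19 ± 0.25 (SE; edgeR adjusted p = 9.87e-07). Il18, the other caspase-1 substrate among the cytokines, showed 5.74, 5.91, 3.91, 4.14 and 4.43 CPM in CTRL. WSD libraries showed 3.92, 5.16, 4.93, 5.95 and 4.47 CPM. The ranges were almost the same, and the log2 fold change was 0.02, with an interval of 1.96 SE from -0.41 to 0.45 (edgeR adjusted p = 0.949). Scaled to total reads, Il18 had a log2 fold change of 0.48 (adjusted p = 0.0393), close to the shift of 0.43 in the median of all genes.

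All 3 genes of the inflammasome core rose. Nlrp3, the sensor, stood at 0.731, 0.548, 0.350, 0.237 and 0.464 CPM in CTRL and at 2.21, 2.85, 3.46, 2.93 and 2.60 CPM in WSD. Its log2 fold change was 2.57 ± 0.26 (SE; edgeR adjusted p = 1.37e-07). Pycard, the adaptor, stood at 0.619, 1.04, 0.408, 0.532 and 0.464 CPM in CTRL and at 4.29, 3.72, 2.73, 3.52 and 5.16 CPM in WSD. Neither gene overlapped between the groups. For Pycard the log2 fold change was 2.66 ± 0.25 (SE; edgeR adjusted p = 5.26e-08), the smallest adjusted p of the 10 genes.

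Casp1, the protease, was less evenly counted. It was listed at 0 in CTRL replicate 3 and stood at 1.80, 0.609, 0.237 and 0.515 CPM in CTRL replicates 1, 2, 4 and 5. WSD libraries held 3.59, 4.38, 2.99, 3.80 and 3.33 CPM. The groups did not overlap, and the log2 fold change of 2.50 ± 0.60 (SE; edgeR adjusted p = 0.0018) had the largest error of the 8 called genes. Casp1 was also listed at 0 in CTRL+beta-Glucan replicates 1 and 5. Its only transcript with reads is 1531 bases long in the deposited files and 1497 in GENCODE M21, the only member transcript whose version differs, and the part of the transcript model in these zeros was not tested.

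Of the death effectors, Casp4 rose strongly and Gsdmd weakly. Casp4, which senses lipopolysaccharide inside the cell, stood at 0.956, 0.731, 0.175, 0.651 and 0.464 CPM in CTRL and at 5.39, 3.59, 1.99, 3.66 and 5.81 CPM in WSD. The lowest WSD library was still above the highest CTRL library, with a log2 fold change of 2.77 ± 0.35 (SE; edgeR adjusted p = 2.5e-06). Gsdmd, the pore protein on which both caspases act, was already abundant in CTRL at 26.0, 25.7, 33.5, 33.7 and 28.2 CPM. WSD libraries held 45.4, 43.1, 39.1, 34.6 and 32.1 CPM. The ranges overlapped, and the log2 fold change was 0.40 ± 0.13 (SE; edgeR adjusted p = 0.0145). With total-read scaling it was 0.87, still called.

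Levels between genes can be compared per length, in TPM. In CTRL Gsdmd led at 20.4 ± 1.68 TPM (SD, n = 5), followed by Il18 at 8.76 ± 1.89 and Il1rn at 3.25 ± 1.07, and these 3 did not overlap with each other. Then came Il1b at 1.61 TPM, Il1a at 0.707, Pycard at 0.685, Casp4 at 0.565 and Casp1 at 0.521, whose ranges all overlapped with their neighbours. Nlrp3 at 0.121 and Tnf at 0.0878 TPM were last and overlapped. In WSD the order was Gsdmd at 38.9 ± 6.31 TPM, Il1rn at 15.6 ± 2.60 and Il18 at 12.4 ± 1.20, the last 2 overlapping. Il1rn thus passed Il18 in mean level. Pycard at 6.99, Casp4 at 5.40, Il1b at 4.16 and Casp1 at 4.15 TPM followed and overlapped with their neighbours. Il1a came to 2.55 TPM, and Tnf at 1.09 and Nlrp3 at 1.02 TPM again shared the end of the order. TPM has no TMM scaling, so the TPM of a gene in WSD and in CTRL includes the shift described for total reads.

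Beta-glucan on CTRL moved none of the 10 genes past the threshold. None had an unadjusted p under 0.05, and 1 of all tested genes was called (0.00736%, in edgeR). Tnf stood at 0.144, 0.186, 0.240, 0.185 and 0.0495 CPM in CTRL+beta-Glucan, within or close to the CTRL range. Il1a stood at 1.66, 1.61, 1.74, 1.48 and 1.24 CPM, between most CTRL libraries and WSD. Its log2 difference from CTRL was 0.56, with an interval of 1.96 SE from -0.10 to 1.21. With 1 library left out at a time it ran from 0.375 to 1.112, not called. Il1b spread widely, at 0.649, 3.48, 3.30, 2.50 and 1.43 CPM. Its log2 difference was 0.29 and ran from 0.016 to 1.438 with 1 library left out, not called. CTRL replicate 2, the highest CTRL library in both genes, is part of the CTRL group here. Over the 10 genes the upper bounds of the intervals of 1.96 SE ran from 0.42 in Gsdmd to 1.40 in Il1b, so equal levels are not shown.

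**Figure D2:**
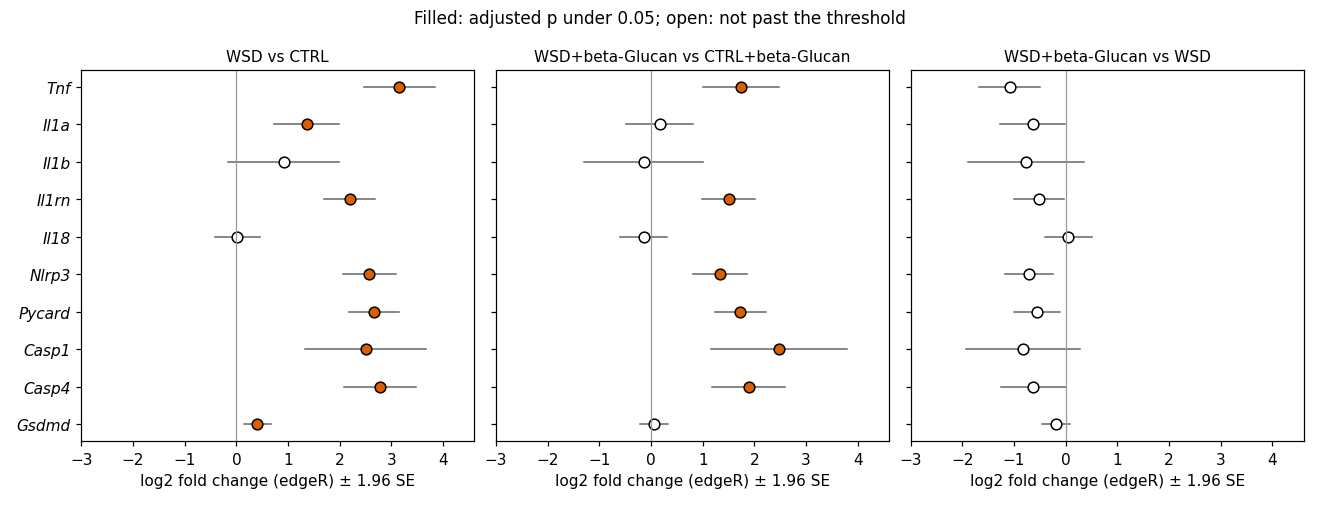
Log2 fold change from edgeR (horizontal axis) with 1.96 SE on either side, for the 10 genes in 3 comparisons; filled points passed the adjusted p of 0.05 and open points did not. For WSD against CTRL 8 points are filled, 6 for the comparison with beta-glucan in both groups and none for WSD+beta-Glucan against WSD, with 9 of 10 points left of 0. A bar can exclude 0 where the F test gives an unadjusted p above 0.05. In WSD+beta-Glucan against WSD this holds for Il1a (edgeR unadjusted p = 0.0618) and Il1rn (edgeR unadjusted p = 0.0529).

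With beta-glucan in both groups, WSD still raised 6 of the 10 genes: Casp1, Casp4, Tnf, Pycard, Il1rn and Nlrp3. Of all tested genes 34.3% were called in this comparison, 19.1% higher. The same 6 genes did not overlap between the groups, as was the case for 14.4% of all tested genes. Their log2 fold changes ran from 1.33 ± 0.26 (SE) in Nlrp3 (edgeR adjusted p = 0.000674) to 2.47 ± 0.68 in Casp1 (edgeR adjusted p = 0.00891). Il1a, Il1b, Gsdmd and Il18 gave 0.17, -0.14, 0.05 and -0.14 and were not called. The signs of the last 3 are not stable: Il1b was 0.13 and Il18 0.17 with total-read scaling, and Gsdmd was -0.03 with an offset for effective length. With total-read scaling Gsdmd was called higher (0.37, adjusted p = 0.0356). Against CTRL without beta-glucan, 6 genes of WSD+beta-Glucan were called higher (20.8% of all tested genes, and 38.3% in either direction), and 5 of the 10 did not overlap (16.5% of all tested genes). They were Pycard, Nlrp3, Il1rn, Casp4, Tnf and Casp1, of which Casp1 (edgeR adjusted p = 0.0439) lost its call in 16 of 27 alternatives. Without CTRL replicate 2 Il1a (log2 1.28, edgeR adjusted p = 0.00116) and Il1b (1.30, adjusted p = 0.0252) were called too. On all libraries Il1a was called with limma-voom (0.93, adjusted p = 0.0336) and with total reads (1.02, edgeR adjusted p = 0.0208), and Gsdmd with total reads (0.52, edgeR adjusted p = 0.0041).

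Within WSD, beta-glucan libraries were lower for most of these genes, but no gene of the set passed the threshold. In this comparison 0.390% of all tested genes were called, 0.302% lower and 0.0883% higher. At an unadjusted p under 0.05 stood Tnf, Nlrp3 and Pycard, as did 2118 of the 13594 tested genes. The estimate was below 0 in 9 of the 10 genes, with a median log2 of -0.63 against 0.01 over all tested genes. In Tnf, Nlrp3, Casp1 and Il1b every WSD+beta-Glucan library lay below every WSD library, which held for 4.83% of all tested genes. None of the 10 lay wholly above WSD, as 2.59% of all tested genes did.

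Tnf had the largest estimate. WSD+beta-Glucan libraries stood at 0.659, 0.297, 0.649 and 0.590 CPM, all between the CTRL and the WSD range. The log2 difference from WSD was -1.08 ± 0.30 (SE), or 0.472-fold, with an edgeR adjusted p = 0.102. Total-read scaling (adjusted p = 0.0426) and limma-voom (adjusted p = 0.0343) called it. Nlrp3 stood at 1.87, 1.70, 1.47 and 1.85 CPM, also between both ranges. Its log2 difference was -0.71 ± 0.24 (SE; edgeR adjusted p = 0.162). DESeq2 (adjusted p = 0.04995), limma-voom (0.0469) and edgeR on these 2 groups alone (0.0429) called it. Over the 19 fits that each left out 1 library, none of the 10 genes was called lower in WSD+beta-Glucan.

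The other genes gave smaller or less certain differences. Casp1 stood at 2.74, 2.25, 1.69 and 1.47 CPM with beta-glucan, a log2 difference of -0.83 ± 0.56 (SE; edgeR adjusted p = 0.488). It was called when only these 2 groups were fitted (adjusted p = 0.0392). Il1b stood at 2.69, 2.17, 1.64 and 1.81 CPM and its log2 difference was -0.77 ± 0.57 (SE; edgeR adjusted p = 0.534). Pycard stood at 2.58, 2.80, 2.94 and 2.19 CPM, with 2 of its libraries above the lowest WSD library. Its log2 difference was -0.56 ± 0.23 (SE; edgeR adjusted p = 0.242). Casp4, at 3.07, 3.23, 2.68 and 1.60 CPM, and Il1a, at 2.14, 1.74, 1.34 and 1.73 CPM, overlapped with WSD. Il1rn was at 17.1 CPM in replicate 1, inside the WSD range, and at 8.62, 10.8 and 11.5 CPM in the others. Gsdmd gave -0.19 and Il18 0.05, with intervals of 1.96 SE from -0.46 to 0.08 and from -0.40 to 0.50.

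The difference between both beta-glucan effects (the effect in WSD minus that in CTRL) was below 0 in all 10 genes, but in none did it pass the threshold (in edgeR, 0.00736% of all tested genes). At an unadjusted p under 0.05 stood Nlrp3, Pycard, Il1a and Tnf, as did 1865 of the 13594 tested genes. Nlrp3 had -1.24 ± 0.37 (SE; edgeR adjusted p = 0.21) and Il1a -1.20 ± 0.47 (adjusted p = 0.29). The sign of Il18 (0.08 without the 3 libraries of titles 37, 39 and 40) and of Casp1 (0.03 with limma-voom) turned under alternatives.

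Macrophage markers rose in WSD, as did most but not all of these genes. All 10 macrophage and monocyte markers were called higher in WSD than in CTRL, and their summed level was 40.7 to 110 CPM in CTRL, 37.7 to 131 in CTRL+beta-Glucan, 591 to 737 in WSD and 352 to 431 in WSD+beta-Glucan. Of 5 Kupffer cell markers 3 were called higher in WSD, against 26.0% of all tested genes. None of either list was called in WSD+beta-Glucan against WSD, where 0.390% of all tested genes were. At an unadjusted p under 0.05 stood 8 of 10 and 1 of 5, against 2118 of the 13594 tested genes. With total reads 5 of the 10 macrophage and monocyte markers were called lower in that comparison, as were 283 of all tested genes. Set against the summed CPM of Adgre1, Cd68, Csf1r, Lyz2 and Mpeg1 in the same library, all 10 genes had a lower mean in WSD than in CTRL, and 6 overlapped between these groups. The mean of that sum rose from 73.7 CPM in CTRL to 634 in WSD, so a gene with an unchanged CPM falls on this measure. Tnf came to 2.06 ± 1.55 CPM per 1000 CPM of these markers in CTRL (SD, n = 5) and to 1.85 ± 0.357 in WSD. Pycard came to 8.93 ± 3.98 and 6.15 ± 1.46, and Casp4 to 8.83 ± 5.30 and 6.52 ± 2.62. Nlrp3 (6.26 ± 0.951 and 4.44 ± 0.641) and Casp1 (7.67 ± 6.14 and 5.74 ± 0.954) overlapped as well, as did Il1b (24.2 ± 28.1 and 5.63 ± 1.79).

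The other 4 genes were lower per macrophage marker in WSD with no overlap. Il1a went from 14.4 ± 9.12 to 4.25 ± 1.08 (SD, n = 5) and Il1rn from 54.2 ± 18.4 to 26.9 ± 1.06 CPM per 1000 CPM of markers. Il18 (70.4 ± 22.5 and 7.71 ± 1.06) and Gsdmd (460 ± 247 and 62.1 ± 13.7) made up the rest. In WSD+beta-Glucan Tnf came to 1.49 ± 0.449 (SD, n = 4), Nlrp3 to 4.71 ± 0.789, Pycard to 7.12 ± 0.528 and Il1a to 4.75 ± 1.03, each overlapping with WSD. Il1b, Il1rn, Casp1 and Casp4 overlapped too, while Il18 (13.9 ± 3.52) and Gsdmd (92.4 ± 8.69) lay above every WSD library. The mean marker sum was lower in WSD+beta-Glucan, at 369 CPM against 634 in WSD. These ratios are a description with no test, and the share of all tested genes that fell or separated on them was not computed. The fall of Il18 and Gsdmd, with log2 fold changes of 0.02 and 0.40 for WSD against CTRL, mainly follows the rise of the marker sum. The part of macrophage number in the changes of the 10 genes was not tested. Other cell types moved as well. In WSD against CTRL 7 of 8 tested T and NK cell markers, 5 of 6 dendritic cell, 5 of 7 hepatic stellate cell and 4 of 6 endothelial cell markers were called higher. So were 3 of 6 cholangiocyte markers, but only 1 of 5 tested neutrophil and 1 of 4 tested B cell markers. The shares over all tested genes were 26.0% higher and 27.1% lower. Of the 8 hepatocyte markers 6 were called lower and none higher, among them the albumin gene Alb (log2 -1.12 ± 0.14 SE) and the urea cycle gene Cps1 (-1.43 ± 0.22 SE). With total reads 5 were lower and 1 higher. The part of these cell types in the changes of the 10 genes was not tested.

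**Figure D3:**
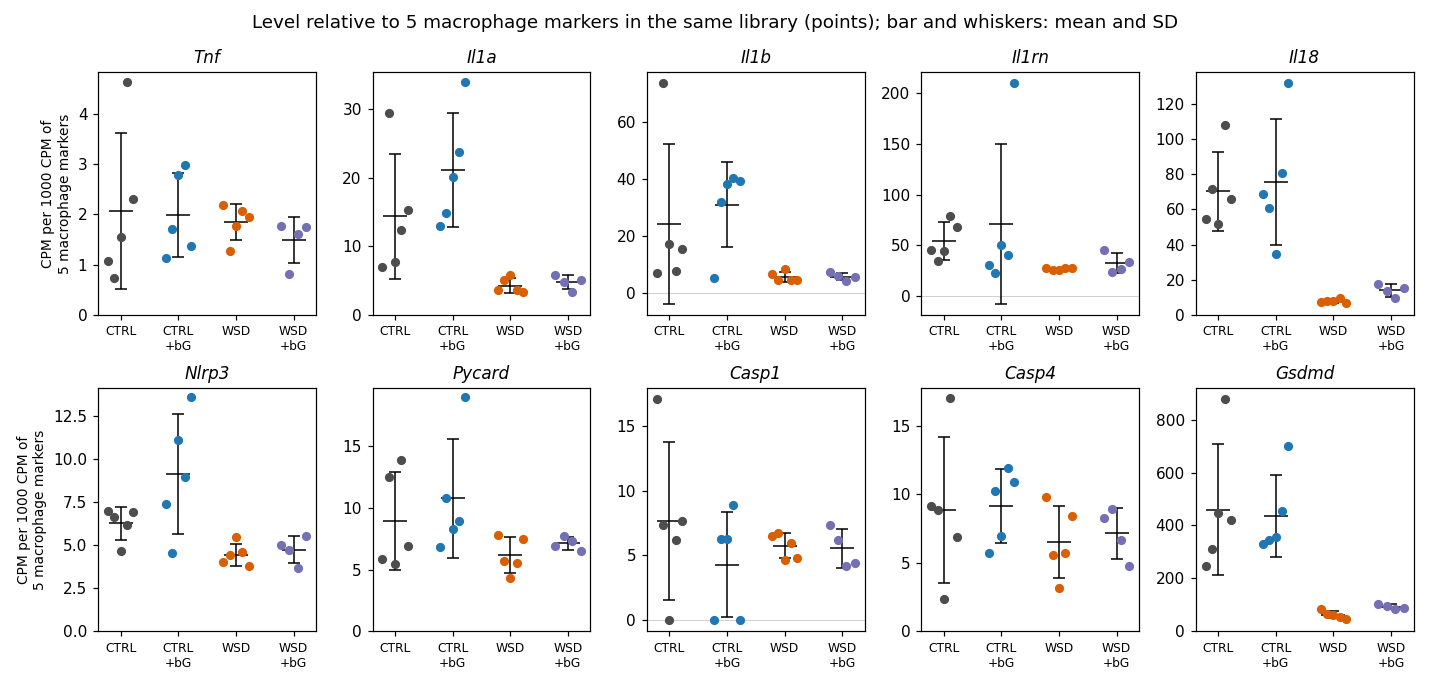
CPM of each gene per 1000 CPM of 5 summed macrophage markers in the same library (vertical axis, linear), 1 point per library, with mean and SD, in the 4 groups. Tnf, Nlrp3, Pycard, Casp1 and Casp4 overlap between WSD and CTRL, while Il18 and Gsdmd fall to 7.71 and 62.1 in WSD. The mean marker sum itself rises from 73.7 CPM in CTRL to 634 in WSD.

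Of the interleukin-18 branch, the binding protein gene was called higher in WSD than in CTRL and Il18 was not called. These are RNA levels in whole liver, and the level of free interleukin-18 was not tested. Il18bp, whose product binds and neutralises interleukin-18, rose in WSD with a log2 fold change of 2.35 ± 0.20 (SE; edgeR adjusted p = 2.44e-08). The ratio of Il18bp to Il18 reads was 1.17, 1.06, 1.49, 0.915 and 0.873 in CTRL and 5.07, 5.92, 5.94, 4.49 and 6.18 in WSD. The log2 ratio differed by 2.34 (exact permutation test, two-sided, p = 0.00794, the smallest that 5 against 5 libraries allow, adjusted over 8 ratio comparisons p = 0.0423). Since the log2 fold change of Il18 was 0.02, this ratio mainly repeats the rise of Il18bp and is no separate support for it. In WSD+beta-Glucan the ratio was 3.05, 3.01, 4.11 and 3.60, below every WSD library. That difference was -0.68 (exact permutation test, two-sided, p = 0.0159, the smallest possible with 4 against 5, adjusted over 8 ratio comparisons p = 0.0423). This adjustment covers only those ratio comparisons. Il18bp itself was not called there by edgeR, with p adjusted over all 13594 tested genes. The log2 fold change of Il18 was 0.05 there, so the ratio mainly follows Il18bp. In CPM, 4.83% of all tested genes lay wholly below WSD. With beta-glucan in both groups the ratio was higher in WSD by 1.68 (exact permutation test, two-sided, p = 0.0159; adjusted p = 0.0423), and between CTRL+beta-Glucan and CTRL it differed by -0.02 (exact permutation test, two-sided, p = 0.913). Leaving out the 3 libraries of titles 37, 39 and 40 gave 2.34, -0.63 and 1.71 for the first 3 differences. The groups remained separate, and the exact permutation p of 0.00794, 0.0357 and 0.1 were the smallest these group sizes allow, so the adjusted p of 0.0635, 0.143 and 0.267 were fixed by the number of libraries.

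The ratio of Il1rn to Il1a plus Il1b reads did not separate the groups. It was 3.23, 0.338, 1.77, 3.81 and 2.21 in CTRL, with CTRL replicate 2 lowest, and 2.74, 2.67, 1.84, 3.54 and 3.53 in WSD. The log2 difference was 0.67 (exact permutation test, two-sided, p = 0.397; adjusted p = 0.529). In CTRL+beta-Glucan it was 1.68, 0.491, 0.870, 0.642 and 2.85, and in WSD+beta-Glucan 3.52, 2.20, 3.60 and 3.24. The log2 difference between those groups was 1.55 (exact permutation test, two-sided, p = 0.0317; adjusted p = 0.0635). In WSD+beta-Glucan against WSD it was 0.15 (exact permutation test, two-sided, adjusted p = 0.689), and in CTRL+beta-Glucan against CTRL -0.73 (adjusted p = 0.529).

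**Figure D4:**
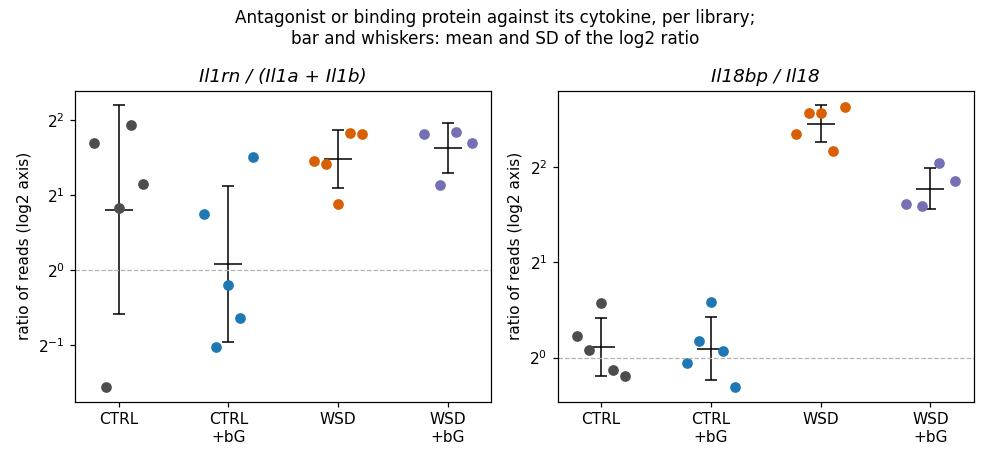
Ratio of reads per library on a log2 axis, for Il1rn over Il1a plus Il1b (left) and Il18bp over Il18 (right), with mean and SD of the log2 ratio in the 4 groups. The Il18bp to Il18 ratio lies between 0.805 and 1.5 without WSD, between 4.49 and 6.18 in WSD and between 3.01 and 4.11 in WSD+beta-Glucan; the Il1rn ratio overlaps between WSD and CTRL.

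The neighbouring pathway genes moved unevenly in WSD against CTRL, where 26.0% of all tested genes were called higher and 27.1% lower. Of 15 other interleukin-1 family ligands, receptors and decoys, 7 could be tested. Il18bp, the alarmin Il33 (log2 1.81 ± 0.21 SE) and Il1rl2 (2.10 ± 0.54 SE) rose, and Il1rap, the shared co-receptor, fell by 0.70 ± 0.11 (SE; edgeR adjusted p = 4.07e-05). Of 12 genes of adaptor signalling below these receptors, 8 fell, among them Irak2, Tab2 and Traf6. The 3 that rose were Irak3, an inhibitory member of the family (log2 1.92 ± 0.32 SE), Irak4 and Myd88. The median of these 12 was -0.33. These falls depend on the scale: with total reads none of the 12 was called lower and 4 were called higher, with a median of 0.14, below the median of 0.43 over all genes. With total reads 7874 of all tested genes were called higher and 617 lower. None of the interleukin-1 family list, Il1rap included, was called lower on that scale either.

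Of 19 tested genes of TNF release, receptors and signalling 13 rose, among them Traf1, an adaptor of TNF receptors (log2 3.13 ± 0.29 SE), Tnfaip3, a feedback inhibitor of NF-kappaB (2.90 ± 0.26 SE), and Mlkl, the effector of necroptosis (1.82 ± 0.17 SE). Cflar, an inhibitor of caspase-8, fell by 0.42 ± 0.08 (SE; edgeR adjusted p = 0.00028). Of 21 tested other inflammasome sensors, regulators and death effectors 15 rose, among them the flagellin sensor Naip5 (2.27 ± 0.18 SE), the guanylate-binding protein Gbp2 (3.14 ± 0.26 SE) and the pyrin gene Mefv (2.65 ± 0.27 SE). Nlrp12, described as a dampener of inflammation, fell from 180 ± 25.3 to 52.0 ± 11.6 CPM (SD, n = 5), with a log2 change of -1.79 ± 0.16 (SE; edgeR adjusted p = 2.59e-08). Nek7, a partner of NLRP3, fell by 0.41 ± 0.09 (SE; edgeR adjusted p = 0.000743). Of 13 NF-kappaB subunits and inhibitors 7 rose, among them Relb (2.60 ± 0.24 SE), and 2 fell, Chuk and Ikbkg. The shares over all tested genes were 26.0% higher and 27.1% lower. With total reads none of the TNF and NF-kappaB lists and 1 of the 21 inflammasome genes was called lower, while 18, 11 and 16 were called higher. In WSD+beta-Glucan against WSD no gene of these 5 lists was called, where 0.390% of all tested genes were. At an unadjusted p under 0.05 stood 3 of 7, 2 of 12, 8 of 19, 7 of 21 and 6 of 13, against 2118 of the 13594 tested genes. The list medians were -0.62, 0.07, -0.36, -0.25 and -0.28. With total reads 1 gene of the first list, 3 of the third and 3 of the fourth were called lower, as were 283 of all tested genes.

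The genes whose profile over the 19 libraries was most like that of a member were found by the root mean square difference of mean-centred log2 CPM, among 12818 protein-coding genes. Nearest to Casp4 were Pycard (0.37 log2 units) and, almost as close, Lsp1 (0.38). Nearest to Il1b were Il1a (0.58) and Efcc1 (0.58), while Il1a itself was closest to Itprip (0.38) and Ccdc126 (0.40). Nearest to Nlrp3 were Gbp9 (0.28) and Cd84 (0.28), to Pycard Pik3r5 (0.23) and Fxyd5 (0.26), and to Tnf Dok2 (0.32) and Ccdc88b (0.33). Il1rn was closest to Psd4 (0.34) and Mefv (0.38). Il18 was closest to Otc (0.17) and Pecr (0.17), and Gsdmd to Commd4 (0.13) and Glmp (0.14). Nearest to Casp1 were Pf4 (0.72) and Myof (0.74). The distance scales with how much a gene varies, so it does not rank the members: the SD over the libraries was 1.84 in Casp1, 1.01 in Il1b, 0.35 in Il18 and 0.25 in Gsdmd.

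Transcripts of a gene were estimated by the quantification and are less certain than gene sums. Il1rn is read from 2 start regions, and the upstream start, used by Il1rn-204, took 18.6 ± 9.86% of its reads in CTRL and 31.8 ± 7.40% in WSD (SD, n = 5), with overlapping ranges. In WSD+beta-Glucan it took 21.8 ± 12.6% (SD, n = 4). Casp1 had 1 transcript with reads, Casp1-201, and Gsdmd reads went mainly to Gsdmd-201 (92.3% in CTRL and 88.7% in WSD, pooled over the 5 libraries). Pycard reads were shared between Pycard-201 and the short Pycard-202, with 31.7% and 38.8% for the latter in CTRL and WSD. Il18 reads went mainly to Il18-204, at 61.8% and 55.3%. All Nlrp3 reads were assigned to Nlrp3-201 in every library but WSD replicate 3 and WSD+beta-Glucan replicate 4, where all went to Nlrp3-202.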

How the data were processed

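Stranded TruSeq mRNA libraries were made from liver RNA (PureLink kit), per the labels' protocols. The authors quantified reads with Salmon 1.10.1 on GRCm39, per the submitters' processing notes, which also name DESeq2 1.38.3 with no role. The transcript set is not given in the sources used here. The deposited files hold estimated counts per transcript, TPM and, as another unit, effective lengths. Of 116546 transcripts 115977 (99.51%) matched GENCODE M21 by identifier, and the rest (at most 0.1095% of reads) were left out. Counts were summed per gene and rounded. The main tests used edgeR 4.0.16 in R 4.3.3 (TMM, filterByExpr, robust quasi-likelihood F test on all 19 libraries, Benjamini-Hochberg over 13594 genes), checked on simulated data. SE is the log2 fold change over the square root of F. Ratio tests used reads plus 0.5. DESeq2 1.42.0, limma 3.58.1 (voom), other scalings and filters and left-out libraries were alternatives, of which total-read scaling was added after seeing the data. Replicates are numbered in deposition order. All 10 genes are named throughout. Other genes named are the pathway genes with the 3 smallest p per list and direction, the 2 most alike profiles per gene, and marker genes. Members and lists were chosen with earlier results of these data known. Il36a, Il36b, Il36g and Il36rn were not analysed here.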

Additional observations from a re-analysis of the deposited data

Results flagged for a closer look

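The 56 groups of 4 or 5 library values examined were levels of the 10 genes, both read ratios, and start shares of Il1rn and Nlrp3. Of these, 4 held a library whose gap to its nearest neighbour was large for the group's range. Chance alone flags about 1 in 20 groups. Il1a in CTRL had its highest library, replicate 2, at 2.44 CPM, with the next at 1.03. Il1b in CTRL had the same library highest, at 6.09 CPM, with the next at 1.28. The share of Nlrp3 reads assigned to the downstream start was 100% in WSD replicate 3 and 0% in the other WSD libraries, and 100% in WSD+beta-Glucan replicate 4 and 0% in the others of that group. The Nlrp3 gene sums of those libraries were 3.46 CPM, the highest of WSD, and 1.85 CPM, inside the range of WSD+beta-Glucan.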

How the results depend on the processing

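All 8 calls of WSD against CTRL and all 6 with beta-glucan in both groups among the 10 genes held in each of the alternatives that gave a value. In WSD+beta-Glucan against WSD, 1 gene of the 10 was called lower with DESeq2 and with total reads, and 2 with limma-voom and with only the compared groups. All tested genes called there were 7 higher without a count filter, 91 higher and 327 lower with DESeq2, 53 and 353 with limma-voom, 46 and 411 with only the compared groups, 26 lower with the length offset and 283 lower with total reads. Leaving out 1 library each time gave 0 to 33 higher and 2 to 151 lower, the most without CTRL+beta-Glucan replicate 5. In CTRL+beta-Glucan against CTRL, 0 genes were called higher with total reads or only the compared groups, 5 with DESeq2, 0 to 2 with 1 library left out, and 2 higher and 3 lower without the 3 libraries of titles 37, 39 and 40. With total reads 7874 higher and 617 lower were called in WSD against CTRL, 5137 and 385 with beta-glucan in both groups and 5442 and 423 in WSD+beta-Glucan against CTRL. In the second of these, 1330 were lower with only the compared groups and 1240 without the 3 libraries. For the difference of the effects, 3 were lower with total reads, 14 higher and 119 lower with DESeq2, 2 lower without the 3 libraries, and 0 to 10 higher and 0 to 71 lower with 1 library left out. The causes were not tested.

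Signs turned for differences that were not called. Without the 3 libraries, Il18 was -0.094 in WSD+beta-Glucan against WSD, -0.174 in CTRL+beta-Glucan against CTRL, 0.106 in WSD+beta-Glucan against CTRL+beta-Glucan, -0.068 in WSD+beta-Glucan against CTRL and 0.080 in the difference of the effects, and in CTRL+beta-Glucan against CTRL Casp4 was -0.036 and Gsdmd -0.058. With total reads Il18 was -0.109 in WSD+beta-Glucan against WSD and, in WSD+beta-Glucan against CTRL+beta-Glucan, 0.170, with Il1b at 0.128. The length offset gave -0.137 for Il1rn in CTRL+beta-Glucan against CTRL and -0.027 for Gsdmd in WSD+beta-Glucan against CTRL+beta-Glucan. Limma-voom gave 0.011 for Il1b in the latter and 0.029 for Casp1 in the difference. With 1 library left out, Casp1 ran from -1.135 to 0.074 in CTRL+beta-Glucan against CTRL and from -0.906 to 0.303 in the difference. Il1rn ran from -0.174 to 0.323 in CTRL+beta-Glucan against CTRL. In WSD+beta-Glucan against CTRL+beta-Glucan, Gsdmd ran from -0.023 to 0.157, Il18 from -0.302 to 0.060 and Il1b from -0.363 to 0.053. Il18 ran from -0.060 to 0.101 in WSD against CTRL, from -0.068 to 0.191 in WSD+beta-Glucan against CTRL, from -0.094 to 0.173 in WSD+beta-Glucan against WSD and from -0.321 to 0.041 in the difference. Il1b ran from -0.127 to 1.297 in WSD+beta-Glucan against CTRL, the latter without CTRL replicate 2.

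The log2 Il18bp to Il18 differences were 2.343, -0.629 and 1.715 without the 3 libraries (adjusted exact permutation p = 0.0635, 0.143 and 0.267, each fixed by the smallest p the group sizes allow). With 1 library left out they ran from 2.266 to 2.459 in WSD against CTRL, -0.772 to -0.622 in WSD+beta-Glucan against WSD, 1.581 to 1.804 with beta-glucan in both groups and -0.144 to 0.094 in CTRL+beta-Glucan against CTRL. The adjusted p of the first 3 rose above 0.05 in 14 of the 19 because fewer libraries raise the smallest possible p. The Il1rn ratio in WSD+beta-Glucan against WSD ran from -0.005 to 0.308. No paired analysis was possible because the labels give no replicate numbers. Depth limits Tnf, Casp1 and Casp4 most, with 3 or fewer reads in some control libraries.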
